A study of Mus musculus with 64 samples.

Results

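The 40 genes described here encode the machinery that copies DNA and divides cells. They were taken from a fixed list of symbols and matched to the table by Ensembl ID. All 40 were found among its 18432 genes. The list holds the replicative helicase and other fork proteins, enzymes of nucleotide supply, mitotic cyclins and kinases, spindle and chromosome proteins, and the cyclins D1 and D2. It was drawn up with earlier results of these data known, but no value of the table chose the members.

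RNA was sequenced from frontal cortex and hippocampus of heterozygous Cyfip2 Arg87Cys knock-in mice (Cyfip2 +/R87C, KI) and of wild-type (WT) littermates, all of strain C57BL/6N. Ages are given as the postnatal week (PWK). Each of the 16 groups of age (PWK 1, 7, 14 or 28), region and genotype held 4 libraries labelled as replicates, which gave 64 libraries. The labels do not say which libraries came from separate mice, so p-values measure the spread between these samples, part of which may be technical. The change lies in the germline copy of Cyfip2, so every cell of a KI mouse carries it. Values are the normalized counts of the authors, which are estimated gene counts scaled across all libraries. Log2 fold changes are differences of mean log2(value + 1) with their standard error (SE). A gene was called when its Benjamini-Hochberg adjusted p was under 0.05 in limma's moderated test over all genes, with n = 4 libraries per group.

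Replication begins when the MCM helicase, a ring of Mcm subunits loaded with the help of Cdc6, is activated by Cdc45. Mitosis is then driven by Cdk1 with cyclins A and B and ends when Cdc20 and the ubiquitin carrier Ube2c start the destruction of cyclins. In resting cells the DREAM complex, which contains pocket proteins, holds these genes down through E2F sites and through CHR elements that often lie near CCAAT boxes. In the mouse brain, neurons have left the cell cycle by the first postnatal week, while glial precursors and the progenitors of the dentate gyrus still divide. In the adult, oligodendrocyte precursors and dentate progenitors keep dividing at a low rate.

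Promoter sequence was available for 32 of the members, in 34 windows that run from 250 bases before to 50 bases after a RefSeq start on GRCm38.p6. The other 8, Aurkb, Ccna2, Ccnd1, Ccnd2, Kif20a, Mcm4, Smc4 and Tpx2, were not matched. A CHR element, searched as TTTGAA or TTCGAA on both strands, was in 21 of the 34 windows (61.8%) and in 19.2% of all 32851 windows. A CCAAT box was in 30 (88.2%), against 37.4% of all windows, and both stood together in 61.8% against 7.52%. An E2F site, searched on both strands as TTCGCGC, as TTGGCGC and also as TTCCCGC, was in 11 windows (32.4%) and in 8.07% of all windows. By role, the motifs were spread as follows. The 5 windows of chromosome proteins, the 2 of anaphase promotion and 5 of the 7 windows of spindle, motor and cytokinesis genes held a CHR element, and 2 of these 14 windows held an E2F site. Of the 9 windows of licensing and fork genes, 6 held an E2F site and 3 a CHR element. The 3 windows of mitotic cyclins and Cdk1 held a CHR element in 2 and an E2F site in 2, and the 5 of mitotic kinases and checkpoint genes in 4 and 0. The 3 of nucleotide supply held no CHR element and an E2F site in 1. These are matches of letters and were not tested as binding sites.

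Stretches of 6 mitotic promoters and of 2 replication promoters are printed because they show these motifs in genes whose values are described next. Each is on the strand of its gene, 5′ to 3′, with matches to the searched motifs in capitals. In Top2a, Cdk1, Cdc20, Ube2c, Hmgb2 and Kif11 the capitals mark CHR elements (TTTGAA or, on the other strand, TTCAAA) and CCAAT boxes (CCAAT or ATTGG). In Mcm6 and Rrm1 they mark E2F sites and CCAAT boxes, and in Mcm6 each capital run beginning with TTGG holds a pair of overlapping E2F matches, 1 on each strand. The last bases of Cdk1, Cdc20 and Ube2c, 26, 9 and 22 in number, overlap an annotated exon.
Top2a, chr11:99024190-99024269, minus strand: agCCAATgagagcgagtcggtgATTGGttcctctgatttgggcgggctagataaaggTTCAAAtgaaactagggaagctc
Cdk1, chr10:69352913-69352992, minus strand: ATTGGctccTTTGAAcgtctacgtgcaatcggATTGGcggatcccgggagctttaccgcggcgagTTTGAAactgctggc
Cdc20, chr4:118437344-118437423, minus strand: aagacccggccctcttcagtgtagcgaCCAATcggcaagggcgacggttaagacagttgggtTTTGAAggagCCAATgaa
Ube2c, chr2:164769849-164769919, plus strand: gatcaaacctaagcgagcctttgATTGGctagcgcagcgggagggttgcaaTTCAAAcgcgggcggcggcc
Hmgb2, chr8:57511763-57511842, plus strand: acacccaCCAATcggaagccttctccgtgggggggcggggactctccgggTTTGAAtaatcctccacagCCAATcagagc
Kif11, chr19:37376302-37376381, plus strand: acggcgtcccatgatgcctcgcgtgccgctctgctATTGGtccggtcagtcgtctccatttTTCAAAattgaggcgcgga
Mcm6, chr1:128359741-128359820, minus strand: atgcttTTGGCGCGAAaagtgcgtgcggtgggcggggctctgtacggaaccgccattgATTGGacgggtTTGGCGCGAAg
Rrm1, chr7:102441600-102441679, plus strand: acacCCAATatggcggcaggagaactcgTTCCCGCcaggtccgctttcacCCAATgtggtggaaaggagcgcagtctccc

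Some facts of the libraries touch the results. Cyfip2 itself, which the knock-in edits and does not remove, ranged from 14909 to 44053 in WT and from 15311 to 38975 in KI libraries. In the cortex all KI libraries lay above WT at PWK 7 (37662 to 38975 against 34519 to 36129). They lay below WT at PWK 14 (28584 to 38683 against 39966 to 44053) and at PWK 28 (21597 to 30055 against 34022 to 35279). In the cortex at PWK 1 and in the hippocampus at every age the genotypes overlapped. With no constant direction, its level does not check the labels. The hippocampal KI replicate 1 at PWK 14 stood apart from all other adult libraries in the members. The member counts of the comparisons that include it are given with and without it. Single genes outside the list are given with it. In the WT cortex at PWK 1, replicate 1 was the highest of the 4 libraries for 30 members, with a summed member level of 18571 against 14523 to 15320 in the other 3. In the WT hippocampus at PWK 1, replicate 2 was the highest for 30 members, with a summed level of 20998 against 18458 to 18885. Of the members, 17 overlap a gene on the opposite strand and 7 a gene on the same strand, and Ccnb1, Ccnb2, Tyms and Pcna have named pseudogenes. Reads from such neighbours and copies can be shared out wrongly in the estimated counts.

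Nearly all of the machinery fell between the first and the seventh postnatal week. In WT libraries, 37 of 40 members were called lower at PWK 7 than at PWK 1 in cortex, where 32.7% of all genes tested were, and 39 of 40 in hippocampus, where 30.4% were. None was called higher in WT mice by limma, against 32.5% of all genes in cortex and 30.9% in hippocampus. At an unadjusted p under 0.05 the counts were 38 and 39. The median member changed by -1.64 in cortex and -1.86 in hippocampus on the log2 scale, while the median of all genes was 0.01 in both. Libraries of different ages come from different mice, and age cannot be told apart from anything else that was handled age by age. In bulk tissue, fewer cells of a type and less RNA per cell cannot be told apart.

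Genes of chromosome structure were among those that fell the furthest. Mki67 (chromosome 7, 135689784 to 135716361, minus strand), which encodes the proliferation marker Ki-67 that coats mitotic chromosomes, was at 838, 1176, 952 and 899 in the 4 WT hippocampi at PWK 1 and at 95.3, 72.9, 63.7 and 88.5 at PWK 7. The groups did not overlap, and the highest adult value was far below the lowest neonatal one (log2 fold change -3.58 ± 0.14 SE, limma adjusted p = 3.6e-09). In cortex Mki67 was at 1078, 667, 720.2 and 693 at PWK 1 and 100.2, 82.9, 90.5 and 110.3 at PWK 7, again without overlap (-3.01 ± 0.15, adjusted p = 7.8e-09). Top2a (chromosome 11, 98992943 to 99024189, minus strand), the topoisomerase that untangles replicated chromosomes, fell from 758, 853, 799.8 and 763 to 78.0, 59.6, 80.2 and 76.1 in the WT hippocampus (-3.42 ± 0.11) and by less in cortex (-2.81 ± 0.22). All libraries of the young group lay above all libraries of the older one in both regions. Hmgb2, a chromatin protein abundant in progenitors, fell by 2.53 in hippocampus and by 1.89 in cortex on the log2 scale. Smc4, a condensin subunit, fell by 1.05 and 1.24, while Smc2, its partner, kept 77.7% of its PWK 1 mean in hippocampus and 63.5% in cortex.

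Mitotic cyclins and kinases fell by very different amounts. Cdk1 (chromosome 10, 69335146 to 69352938, minus strand), the kinase that starts mitosis, was at 183, 124, 153 and 135 in the WT cortex at PWK 1 and 5.63, 5.61, 4.51 and 20.5 at PWK 7. Every library of PWK 7 was far below every library of PWK 1, and the fall of Cdk1 was the largest of all members in cortex (-4.12 ± 0.38, adjusted p = 1.3e-06). In hippocampus it fell from 165, 187, 177 and 167 to 22.1, 20.8, 4.26 and 32.7 (-3.34 ± 0.46). Ccnb1, which encodes cyclin B1, fell by 2.48 in cortex and by 3.07 in hippocampus. Bub1, a checkpoint kinase (-3.33 ± 0.28), and Cenpf, a kinetochore protein (-3.18 ± 0.22), followed Cdk1 among the largest falls in cortex. Ube2c (-3.48 ± 0.18) and Prc1, which bundles the spindle midzone (-3.08 ± 0.15), were among the largest in hippocampus, as was the kinase Aurkb in cortex (-2.73 ± 0.36). The kinases Plk1 (-1.28 ± 0.19 in cortex and -1.34 ± 0.16 in hippocampus) and Aurka (-1.31 ± 0.20 and -1.41 ± 0.27) fell less. Bub1b was at -0.52 ± 0.25 in cortex, where it was not called, and at -0.73 ± 0.13 in hippocampus, where it was. Kif11, a motor that pushes spindle poles apart, fell from 352, 399, 344 and 317 to 86.9, 66.5, 77.5 and 69.4 in the WT hippocampus (-2.22 ± 0.12).

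**Figure D1:**
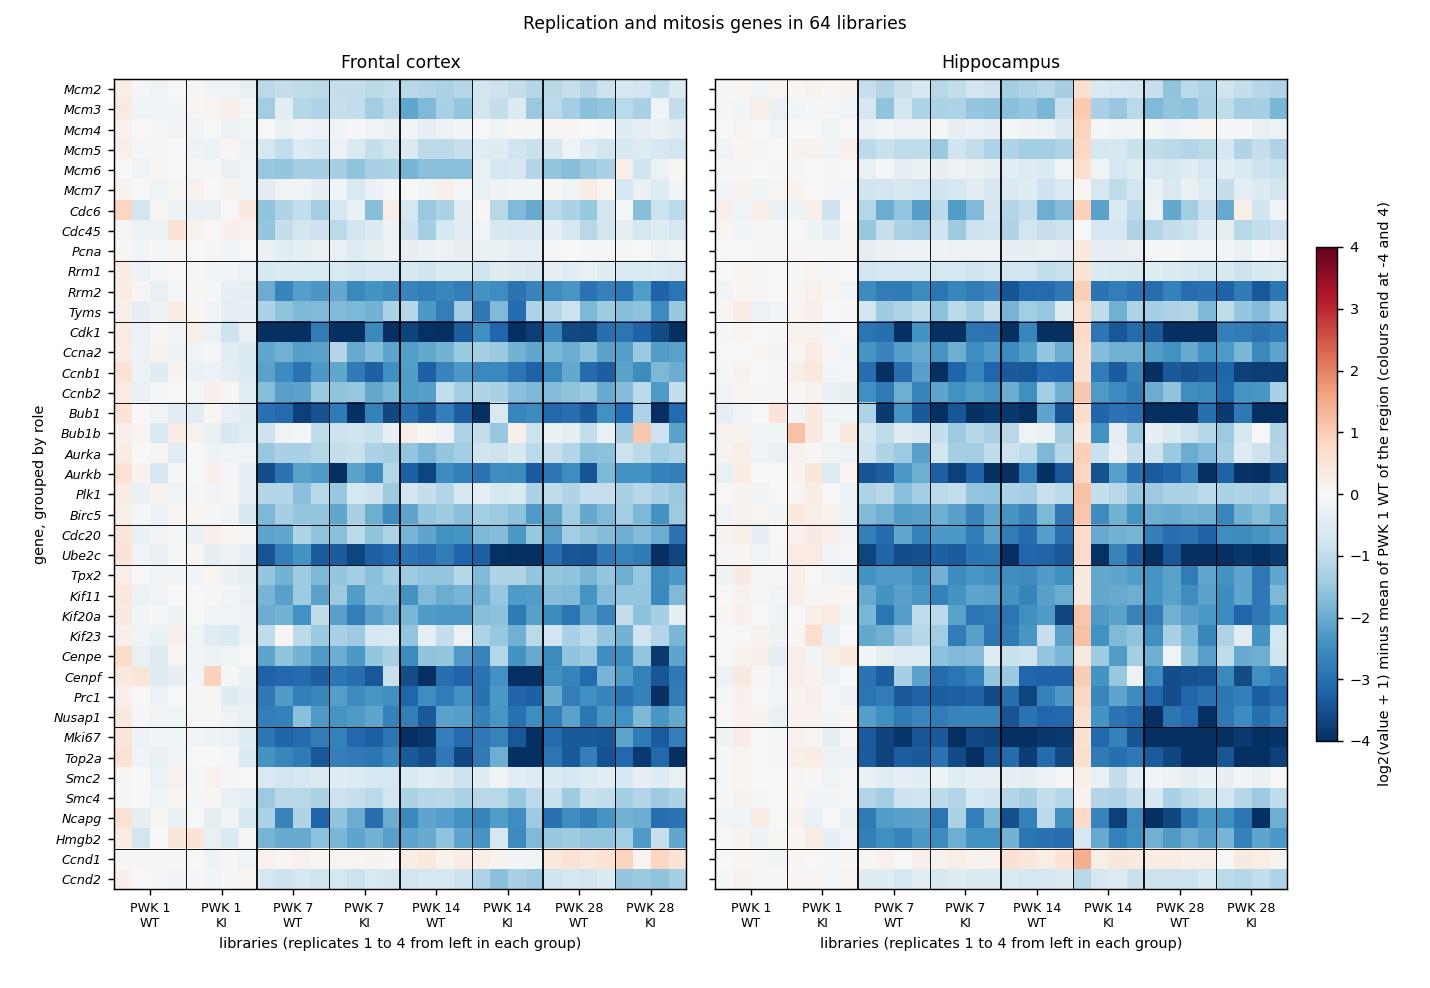
Level of the 40 members (rows, grouped by role) in the 64 libraries (columns, by region, PWK and genotype), as log2(value + 1) minus the mean of the PWK 1 WT libraries of the same region. Most rows turn blue at PWK 7 and stay so, Ccnd1 does not, and 1 column, KI replicate 1 of the PWK 14 hippocampus, is near or above the PWK 1 level in nearly all rows.

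The median fall of licensing and fork genes was smaller than that of mitotic cyclins and Cdk1 and of spindle genes. By role, the median log2 change of the 9 licensing and fork genes was -1.02 in cortex and -0.92 in hippocampus, against -2.28 and -2.77 for the 4 mitotic cyclin and Cdk1 genes and -1.94 and -2.29 for the 8 spindle, motor and cytokinesis genes. Genes of nucleotide supply and mitotic kinase and checkpoint genes overlapped in the share kept in the WT cortex. Rrm1, Rrm2 and Tyms kept 64.8%, 20.3% and 32.0% of the PWK 1 mean. The kinase and checkpoint genes kept from 8.61% (Bub1) to 70.4% (Bub1b). These groups were not tested against each other. Mcm2 (chromosome 6, 88883474 to 88898780, minus strand), a helicase subunit, was at 298, 333, 294 and 337 in the WT hippocampus at PWK 1 and 164, 140.5, 168 and 196 at PWK 7. The groups did not overlap (-0.92 ± 0.11, adjusted p = 2.4e-05). Mcm4 kept 89.2% of its PWK 1 mean in cortex and was not called there (-0.16 ± 0.09, adjusted p = 0.136). Pcna, the clamp that holds DNA polymerase, kept 79.0% in cortex and 82.4% in hippocampus, and both falls were called (-0.34 ± 0.06 and -0.28 ± 0.05).

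The subunits of ribonucleotide reductase, which makes DNA building blocks, fell to different degrees. Rrm2, the subunit whose level rises in S phase, was at 318, 369, 358 and 342 and then 60.2, 49.1, 47.7 and 59.5 in the WT hippocampus (-2.66 ± 0.12, adjusted p = 8.0e-09). Rrm1, the large subunit, was at 839, 877, 796 and 849 and then 497, 525, 529.8 and 513. Both genes had groups without overlap, but Rrm2 kept 15.6% and Rrm1 61.4% of the PWK 1 mean.

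Of the cyclins D1 and D2, which tie the cell cycle to growth signals, Ccnd2 fell less than most members and Ccnd1 did not fall. Ccnd1 was at 1378, 1352, 1254 and 1286 in the WT cortex at PWK 1 and 1486, 1378, 1483 and 1384 at PWK 7, the older libraries level with the younger ones or slightly above them (0.12 ± 0.05, adjusted p = 0.0568). In hippocampus its change was 0.12 ± 0.06 (adjusted p = 0.0854), and it was the only member not called there. Ccnd2 fell in both regions, from 5394, 6303, 5426 and 5863 to 4129, 4107, 3529 and 4166 in hippocampus (-0.53 ± 0.07) and by 0.75 in cortex. Per kilobase of annotated exon, Ccnd2 was the most abundant member in the WT hippocampus at PWK 1, at 611 normalized counts, followed by Pcna at 482 and Ccnd1 at 274. Cdc6 was the least abundant, at 10.3.

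In KI mice 36 of 40 members were called lower in cortex (32.9% of all genes were) and 39 of 40 in hippocampus (30.2%). The median change was -1.43 in cortex and -2.14 in hippocampus, with 0.02 and 0.03 for all genes. Ccnd1 was the single member called higher in either region (0.19 ± 0.06 and 0.16 ± 0.05, background 33.4% and 31.1%). Mki67 fell by 2.73 in the KI cortex and by 3.64 in the KI hippocampus, and Cdk1 by 3.76 and 3.93. Whether the fall differs between the genotypes was not tested as such.

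**Figure D2:**
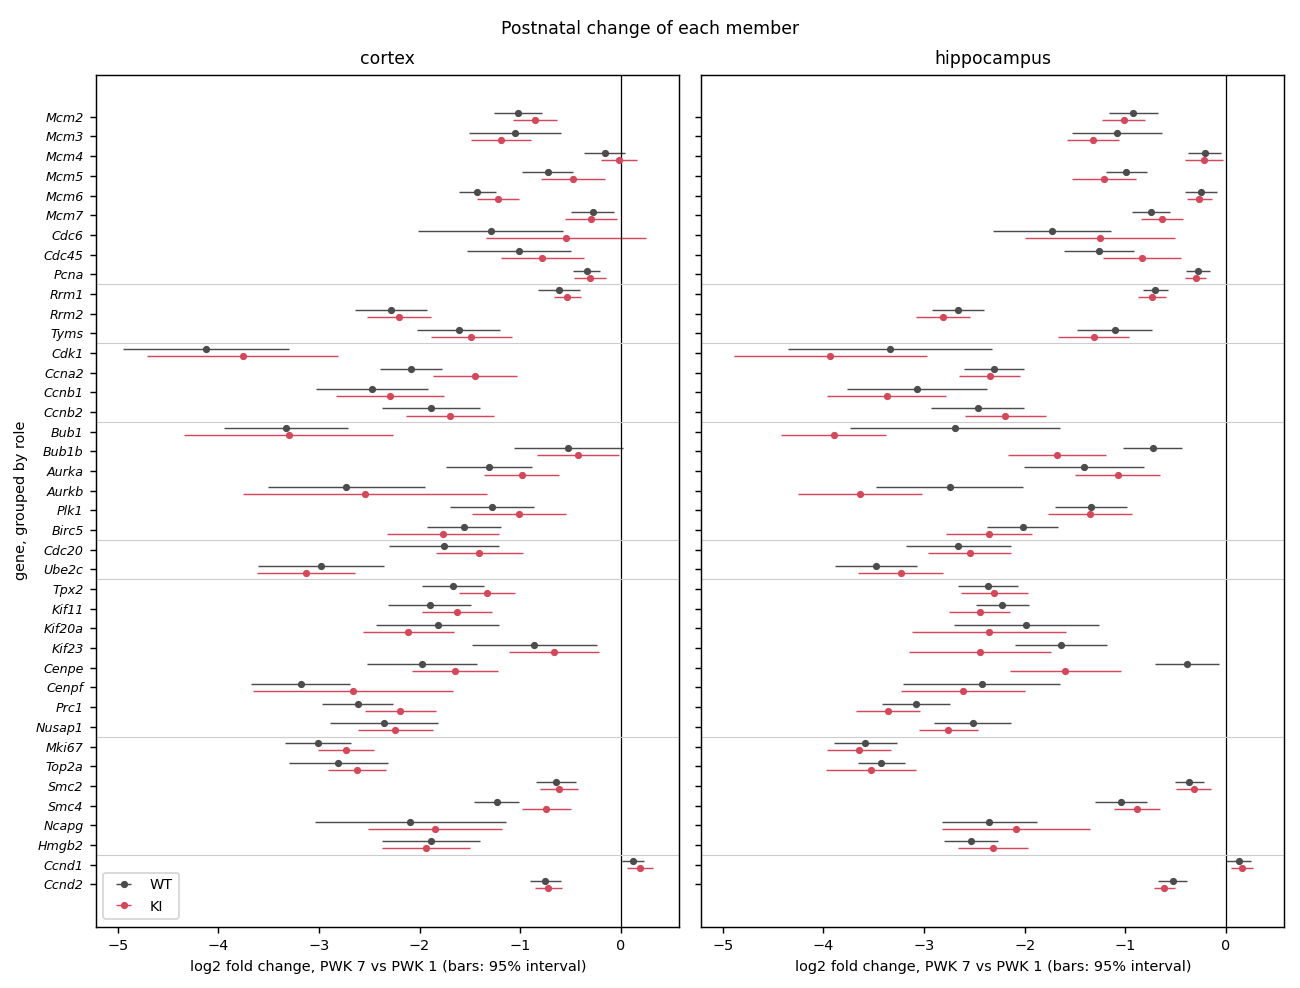
Log2 fold change from PWK 1 to PWK 7 of each member (rows, grouped by role) in cortex and hippocampus, for WT (grey) and KI (red), with 95% intervals from limma. Changes reach -4.12 for Cdk1 in the WT cortex, and those of Mcm4, Pcna and Ccnd1 lie close to 0.

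Other genes of the same pathways moved with the members. Of 36 other mitosis genes, 29 were lower and 3 higher at PWK 7 in the WT cortex, and 32 were lower and 2 higher in the hippocampus. Of 29 other replication genes, 21 were lower and 1 higher in each region, with medians of -0.82 and -0.74. Of 10 cell cycle inhibitors and pocket proteins, 7 were lower in cortex, and 8 were lower and 1 higher in hippocampus. The drivers of S phase entry and cell cycle transcription factors were split, with 8 lower and 2 higher of 16 in cortex and 10 and 1 in hippocampus. Markers of cells that divide in the young brain were also at lower summed levels. In the WT hippocampus the summed level of 10 neural progenitor markers went from 14141 to 15484 at PWK 1 to 4837 to 5170 at PWK 7, and that of 8 oligodendrocyte precursor markers from 16730 to 19247 to 9277 to 9876. Their part in the members' fall was not tested.

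In the first week a part of the members was higher in hippocampus than in cortex. In WT mice at PWK 1, 11 of 40 members were called higher in hippocampus (16.1% of all genes were) and none lower (18.6%), with a median difference of 0.29 against -0.00181 for all genes. At an unadjusted p under 0.05 the count was 16 in either direction. The called genes were Top2a (0.46 ± 0.15), the helicase subunits Mcm3 (0.57 ± 0.15), Mcm4 (0.29 ± 0.08), Mcm6 (0.21 ± 0.06) and Mcm7 (0.45 ± 0.09), Cdc45 (0.49 ± 0.18), Cdc20 (0.54 ± 0.19), Prc1 (0.39 ± 0.11), Hmgb2 (0.67 ± 0.21), Smc4 (0.36 ± 0.08) and Ccnd2 (0.47 ± 0.07). The number depended on single libraries: it was 24 without replicate 1 of the WT cortex, 7 without replicates 2 or 3 of the WT cortex or replicates 1 or 4 of the WT hippocampus, and 4 without replicate 2 of the hippocampus. In 1 fit of all 64 libraries it was 2.

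At the later ages members differed between the regions in both directions, in shares close to or below those of all genes. At PWK 7, 9 members were higher in hippocampus (20.4% of all genes) and 2 lower (20.4%), and 7 in all were called without WT replicate 3 of the cortex or 4 of the hippocampus, and likewise when all 64 libraries were fitted together. At PWK 14 the counts were 7 and 3 (17% and 17.6%), and at PWK 28 they were 4 and 5 (18.8% and 19%), with 5 in all in the fit of all 64 libraries. Mcm6 (chromosome 1, 128331590 to 128359664, minus strand) and Ccnd2 were higher in hippocampus at every age. At PWK 7 the helicase gene Mcm6 was at 551, 648, 516 and 567 in hippocampus and 203, 199, 229.8 and 233 in cortex, far apart (1.40 ± 0.09, adjusted p = 3.5e-07), and the difference was 1.53 at PWK 14 and 1.14 at PWK 28. Cenpe, a kinetochore motor, was higher in hippocampus at PWK 7 (1.82 ± 0.17) and PWK 14 (0.95 ± 0.28). Smc2 was higher at PWK 7, 14 and 28 (0.51, 0.58 and 0.54). Smc4 was higher at PWK 7 (0.55 ± 0.14) and PWK 14 (0.40 ± 0.10), and Cenpf at both ages too (1.20 ± 0.36 and 1.13 ± 0.40). Mcm2 (0.33 ± 0.12), Mcm4 (0.24 ± 0.08) and Tyms, which makes thymidylate (0.89 ± 0.19), were higher at PWK 7, Mcm3 at PWK 14 (0.76 ± 0.23) and Mcm4 at PWK 28 (0.24 ± 0.08).
Kif23, a motor of the dividing cell's midbody, was lower in hippocampus at PWK 7, 14 and 28 (-0.97 ± 0.33, -1.47 ± 0.40 and -1.07 ± 0.29). Tpx2, a spindle assembly factor, was lower at PWK 7 (-0.45 ± 0.15) and PWK 14 (-0.76 ± 0.15), and Mcm5 at PWK 14 (-0.43 ± 0.13) and PWK 28 (-0.62 ± 0.13). By PWK 28 Mki67 (-0.71 ± 0.16), Cdc20 (-0.72 ± 0.26) and Ccnd1 (-0.28 ± 0.05) were lower there as well.

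The difference between regions in the postnatal fall was tested itself. Of 40 members 4 were called, against 21.3% of all genes. Mcm6 fell by 1.43 in the WT cortex and by 0.25 in the WT hippocampus, a difference of 1.18 ± 0.11 (limma adjusted p = 6.4e-07). Cenpe also fell more in cortex (difference 1.59 ± 0.31). Mcm7 (-0.47 ± 0.13) and Tpx2 (-0.69 ± 0.20) fell more in hippocampus. The count was 7 without replicate 1 of the WT cortex at PWK 1 or without replicate 3 of the WT hippocampus at PWK 7, and 2 in the fit of all 64 libraries.

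Few members were called over adult life in WT mice. From PWK 7 to PWK 28, 4 members were higher in the WT cortex (10.9% of all genes) and none lower (11.4%), and 7 had an unadjusted p under 0.05. The called genes were Ccnd1 (0.38 ± 0.05), Pcna (0.28 ± 0.06), Mcm7 (0.34 ± 0.11) and Rrm1 (0.23 ± 0.07). In the WT hippocampus 2 were higher (6.35% of all genes), Mcm7 (0.33 ± 0.09) and Pcna (0.18 ± 0.05), and 3 were lower (8.38%). The lower genes were Mki67 (-0.75 ± 0.18), Mcm6 (-0.35 ± 0.08) and Ccnd2 (-0.29 ± 0.06). Mki67 was at 48.1, 54.2, 37.8 and 48.2 in hippocampus at PWK 28, below all 4 libraries of PWK 7.
Without PWK 7 replicate 1 of the WT cortex 2 genes were called there. In the hippocampus the count was 3 without PWK 28 replicate 1 or 4 and 2 without PWK 7 replicate 1. The fit of all 64 libraries called 2 in each region.

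No member was called between KI and WT mice at the early ages. At PWK 1 no member was called in cortex (0.00546% of all genes were) or in hippocampus (0.0109%), and 1 member in each region had an unadjusted p under 0.05. At PWK 7 none was called in cortex (0.00545%) or in hippocampus (0.0218%), and 1 and 3 members had an unadjusted p under 0.05. In the cortex at PWK 1 the members with the smallest p were Kif23 (-0.34 ± 0.15, 95% interval -0.68 to -0.01) and Ccna2, the gene of cyclin A2 (-0.30 ± 0.14, -0.62 to 0.01). In the hippocampus they were the checkpoint kinase gene Bub1b (0.47 ± 0.21, 0.00 to 0.93) and Pcna (0.07 ± 0.04, -0.02 to 0.16).
At PWK 7 they were Smc4 (0.33 ± 0.11, 0.10 to 0.57) and Cdc6 (0.69 ± 0.38, -0.13 to 1.52) in cortex, and Cenpe (-1.02 ± 0.25, -1.58 to -0.47) and Bub1b (-0.48 ± 0.15, -0.82 to -0.15) in hippocampus. Cenpe was at 206, 168, 154 and 157 in WT and 70.9, 64.9, 66.1 and 155 in KI hippocampi, with 1 KI library inside the WT range, and 3 KI libraries below it. Its adjusted p was 0.554, and without KI replicate 4 a single member was called in this comparison. The median member differed by -0.14 in the cortex at PWK 1 and by 0.02 at PWK 7, and by 0.05 and -0.05 in the hippocampus, with medians of all genes between -0.00186 and 0.00499.

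At PWK 14 most members were high in 1 of the 4 KI hippocampi, at or above their level in the first week. Mki67 was at 56.1, 55.9, 64.5 and 66.9 in the WT libraries and 1466, 107, 145 and 87.2 in the KI libraries. KI replicate 1 was above every WT hippocampus of PWK 1, and the other 3 KI libraries lay above all 4 WT libraries, but by far less. Top2a was at 92.4, 56.6, 92.9 and 64.2 in WT and 1231, 111, 96.2 and 108 in KI libraries. Cdk1 was at 5.52, 27.8, 8.54 and 9.24 in WT and 301, 22.6, 15.7 and 19.6 in KI libraries. Here again the first KI library stood alone, and for Cdk1 the others mixed with WT. Rrm2 was at 30.4, 39.1, 40.1 and 46.6 in WT and 674, 43.9, 50.3 and 43.4 in KI libraries, and Ccnb1 at 13.6, 13.3, 16.3 and 15.6 and 229, 20.8, 14.1 and 23.3. Both showed the same single high library.

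Replicate 1 was the highest of the 8 libraries in 39 of 40 members, and of all 18432 genes it was so in 23.9%. It was over 2 times the next highest in 31 members (77.5%), against 3.90% of all genes, and the highest of all 48 adult libraries in 38 (95%), against 12.0%. The 47 other adult libraries were the highest of their 8 in at most 12 members, and over 2 times the next in at most 2. In 36 members (90%) its value was above every WT hippocampus of PWK 1, against 42.2% of all genes. The exceptions were Mcm7, Cdc45, Hmgb2 and Ccnd2. The summed level of the members was 24462 in this library, 10046 to 10790 in the other 7 and 18458 to 20998 in the WT hippocampus at PWK 1.

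Members were raised to different degrees in this library, also within a role. Over the mean of the other 7 libraries, Cdk1 was 19.4 times as high, Ube2c 19.3 times, Mki67 17.6 times and Aurkb, a chromosomal passenger kinase, 17.5 times. Other mitotic genes were raised less, among them Plk1 (5.08 times), Aurka (3.77), Cenpe (3.42) and Bub1b (2.36). Rrm2 was 16.05 times as high and Rrm1 2.39 times. Among the helicase subunits the factor lay between 1.68 for Mcm7 and 5.41 for Mcm3, and Pcna was 1.65 times as high. Ccnd1 was at 3545, above every other adult library and every neonatal hippocampus. Ccnd2 went the other way, with 2668 in this library, the lowest of the 8, against 3750.3, 3545, 3630.1 and 3966 in WT. The cortex library with the same replicate number, which may or may not be from the same mouse, was not raised, with a summed level of 8139 and Mki67 at 106.

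**Figure D3:**
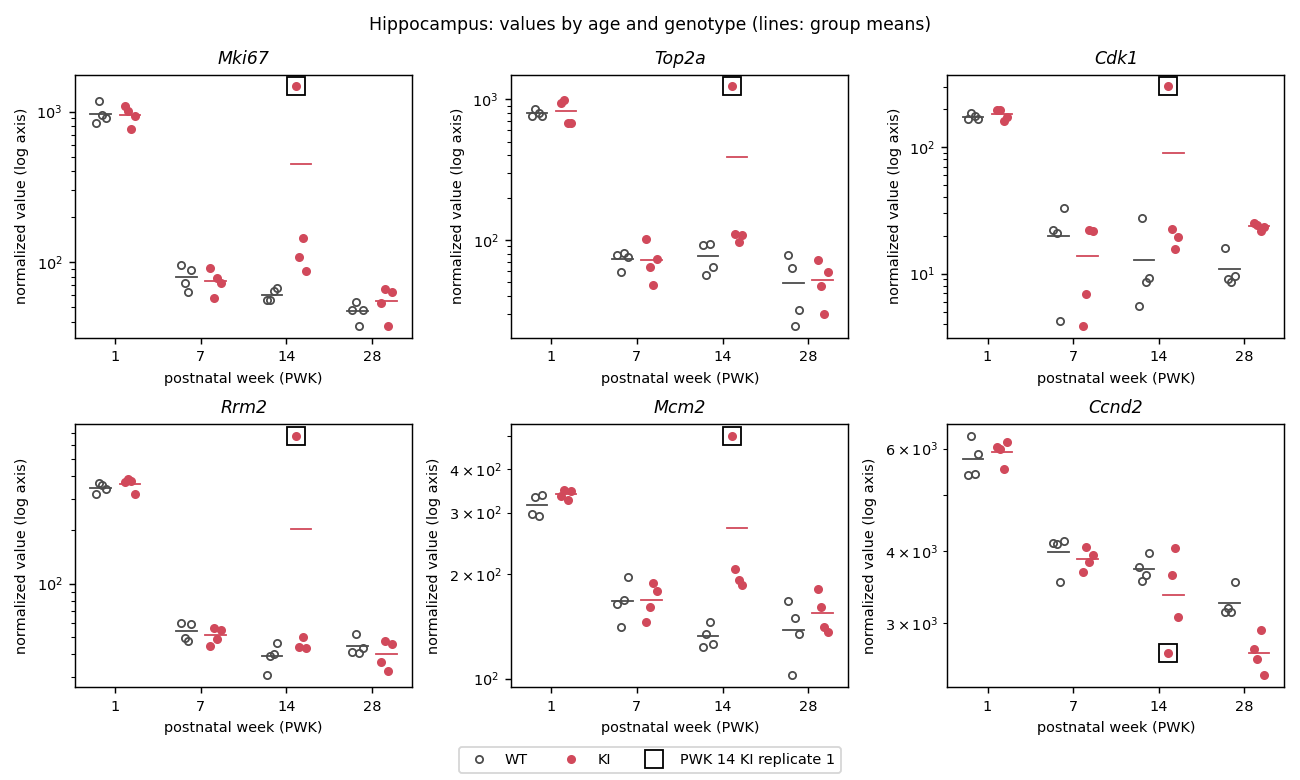
Normalized values (log axes) of 6 members in the hippocampus by PWK and genotype, with 1 point per library and lines at group means. KI replicate 1 of PWK 14 is boxed. It lies at 1466 for Mki67 and 301 for Cdk1, at or above the PWK 1 level, while its Ccnd2 is the lowest of its age.

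Other cell cycle genes were high in the same library. Of 36 other mitosis genes 33 were the highest of the 8 libraries there, of 29 other replication genes 28, and of 16 genes of S phase entry and transcription 13. Over all genes the share was 23.9%. Foxm1, the activator of mitotic genes, was at 416 in this library, 29.7 to 75.8 in WT and 91.6 to 130.1 in the other KI libraries. The inhibitors and pocket proteins were mixed, with 4 of 10 the highest there.

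Markers of several cell types moved in that library as well. All 8 oligodendrocyte precursor markers, 7 of 8 microglial, 5 of 7 astrocyte and 6 of 8 endothelial and pericyte markers were the highest of the 8 libraries, and 5 of 6 oligodendrocyte markers were the lowest. Of all genes 23.9% were the highest in this library and 22.9% the lowest. The summed microglial level was 26730 against 9326 to 14206 in the other 7, that of oligodendrocyte precursors 17994 against 8515 to 9410, and that of astrocytes 223161 against 44419 to 90241. Gfap, the filament of reactive astrocytes, was at 131431 there, 40059 to 47169 in the other 3 KI libraries and 7502 to 9231 in WT. Vim, a filament of progenitors and reactive glia that is on both lists, was at 27342 against 1183 to 2881 in the other 7. Of the 10 progenitor markers 5, Vim among them, were the highest of the 8 libraries and 4 the lowest. Among the lowest were Eomes at 9.71 and Neurog2 at 7.31, markers of dentate intermediate progenitors. Both are at a low level, where values are least precise. Of 8 immature neuron markers 1 was the highest of the 8 libraries and 4 the lowest. Dcx, a marker of young neurons, was among the lowest at 622. Neuronal markers summed to 206281 against 245224 to 328404. The part of these cells in the members' level was not tested.

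**Figure D4:**
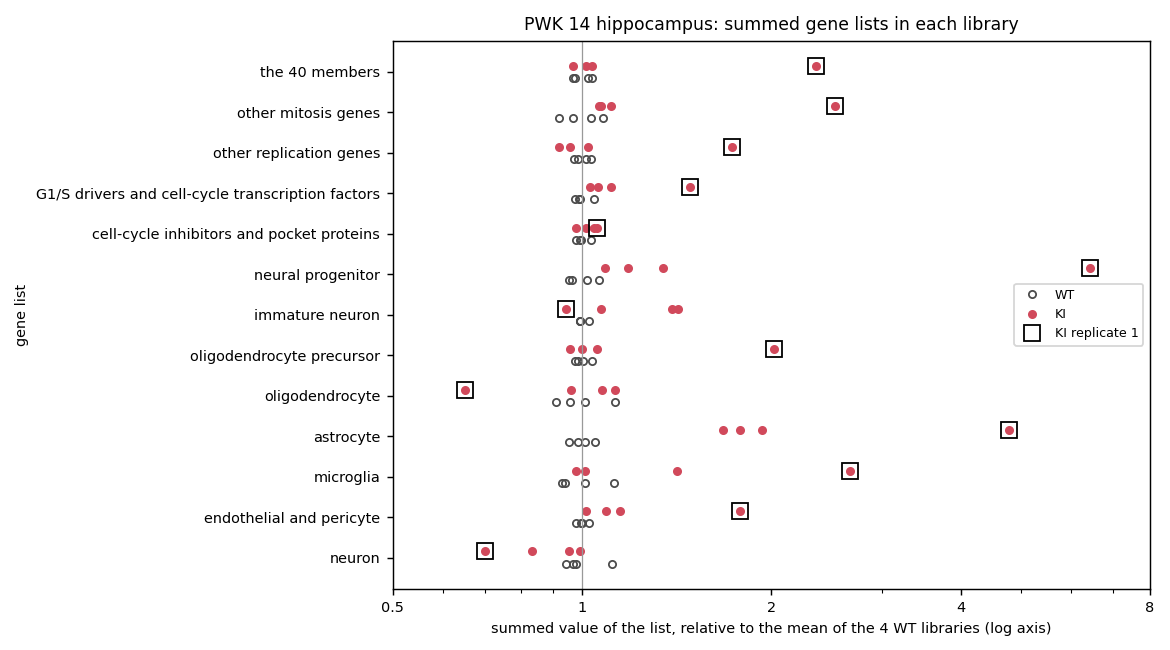
Summed value of each gene list in the 8 libraries of the PWK 14 hippocampus, relative to the mean of the 4 WT libraries (log axis), with KI replicate 1 boxed. The members, the other cell cycle genes and the glial markers are raised in that library, and the oligodendrocyte and neuron markers are lowest in it.

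With all 8 libraries no member was called between KI and WT at PWK 14 in hippocampus, where 15.6% of all genes were, and 5 had an unadjusted p under 0.05. The smallest p were those of Mcm2 (0.90 ± 0.29, adjusted p = 0.0636) and Cenpf (1.98 ± 0.69, adjusted p = 0.0817). The median member differed by 0.87, against 0.01 for all genes, 37 of 40 were higher in KI, and 7 had KI libraries all above WT (11.6% of all genes did). Those 7 were Mki67, Top2a, Mcm2, Mcm5, Cdc20, Tpx2 and Rrm1. Without KI replicate 1 the median fell to 0.22, and 3 members were called higher in KI, with 8.98% of all genes. These were Mki67 (0.86 ± 0.20, adjusted p = 0.0183), Mcm2 (0.56 ± 0.12, adjusted p = 0.0139) and Mcm5 (0.54 ± 0.13, adjusted p = 0.0229). In the remaining 3 KI libraries Mcm2 was at 207, 193 and 186 against 123, 134, 146 and 126 in WT. Without KI replicate 2 in place of replicate 1, 1 member was called. One fit of all 64 libraries, in which the spread of the other groups is shared, called 23 members higher, with 16.8% of all genes. That fit included KI replicate 1.

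In the adult cortex 2 members moved in opposite directions. At PWK 14 Mcm6 was at 161, 182, 183 and 181 in WT and 475, 360.1, 375 and 256 in KI libraries. Every KI library was above every WT library (1.02 ± 0.16, adjusted p = 0.00673). Ccnd2 (chromosome 6, 127125162 to 127152193, minus strand) was at 2513, 2517, 2547 and 2353 in WT and 1751, 1310.0, 1702 and 1515 in KI libraries, all KI libraries being lower (-0.67 ± 0.09, adjusted p = 0.00291). These were the 1 member called higher (2.48% of all genes) and the 1 called lower (2.7%) in this comparison. The median member differed by 0.09. In 2 members all KI libraries were above WT (6.64% of all genes) and in 2 below (7.51%). Beside Mcm6 and Ccnd2 these were Aurka, a spindle pole kinase (0.75 ± 0.20, adjusted p = 0.0588), and Ube2c (-1.19 ± 0.41, adjusted p = 0.127).

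At PWK 28 the same 2 genes differed again in the cortex. Mcm6 was at 194, 177, 205 and 234 in WT and 705, 336, 497 and 616 in KI libraries (1.36 ± 0.20, adjusted p = 0.00143). The lowest KI library was still above WT, and the highest was above every cortex library of PWK 1. Ccnd2 was at 2380.2, 2548, 2459 and 2811 in WT and 1431, 1489, 1370.3 and 1653 in KI libraries (-0.78 ± 0.08, adjusted p = 0.000214), again all lower. Kif20a (chromosome 18, 34624613 to 34633277, plus strand), a kinesin of cytokinesis, was at 15.3, 11.2, 19.7 and 14.3 in WT and 47.2, 28.9, 35.9 and 71.1 in KI libraries, all higher (1.48 ± 0.31, adjusted p = 0.00775). Kif20a overlaps Cdc23 on the opposite strand. The calls of Mcm6 and Ccnd2 in both adult cortex comparisons and that of Kif20a held under each of the 13 alternatives run for it. Of 7 astrocyte markers 2 were called higher and 1 lower at PWK 14, and 1 higher and 2 lower at PWK 28. Gfap was higher at both ages (1.56 ± 0.27 and 1.52 ± 0.23) and Slc1a3, a glutamate transporter, lower (-0.36 ± 0.07 and -0.37 ± 0.06). The summed astrocyte level was 33814 to 43084 in KI and 33889 to 39451 in WT at PWK 14, and 35671 to 45310.3 and 34459 to 40687 at PWK 28. Their part was not tested.

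No other subunit of the helicase was called higher with Mcm6. At PWK 28 Mcm4 was at 327, 329, 313 and 304 in WT and 229, 255, 267 and 235 in KI cortices, all lower (-0.37 ± 0.10, adjusted p = 0.0198), and Mcm7 was lower although the groups overlapped (-0.46 ± 0.14, adjusted p = 0.0432). Mcm2 (0.27 ± 0.14), Mcm3 (0.56 ± 0.25) and Mcm5 (-0.15 ± 0.14) were not called. Rrm1 was lower without overlap (-0.25 ± 0.08, adjusted p = 0.043). The proliferation markers Mki67 (0.56 ± 0.23) and Top2a (-0.55 ± 0.34) were not called, and their values pointed in opposite directions. In all, 2 members were called higher (12.2% of all genes) and 4 lower (10%), a share of 15% against 22.2%, and the median was -0.13 against -0.00339 for all genes. The calls of Mcm7 and Rrm1 were lost in 6 and 10 of 13 alternatives, and that of Mcm4 without WT replicate 1 or 2. Without WT replicate 1, 3 members were called.

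**Figure D5:**
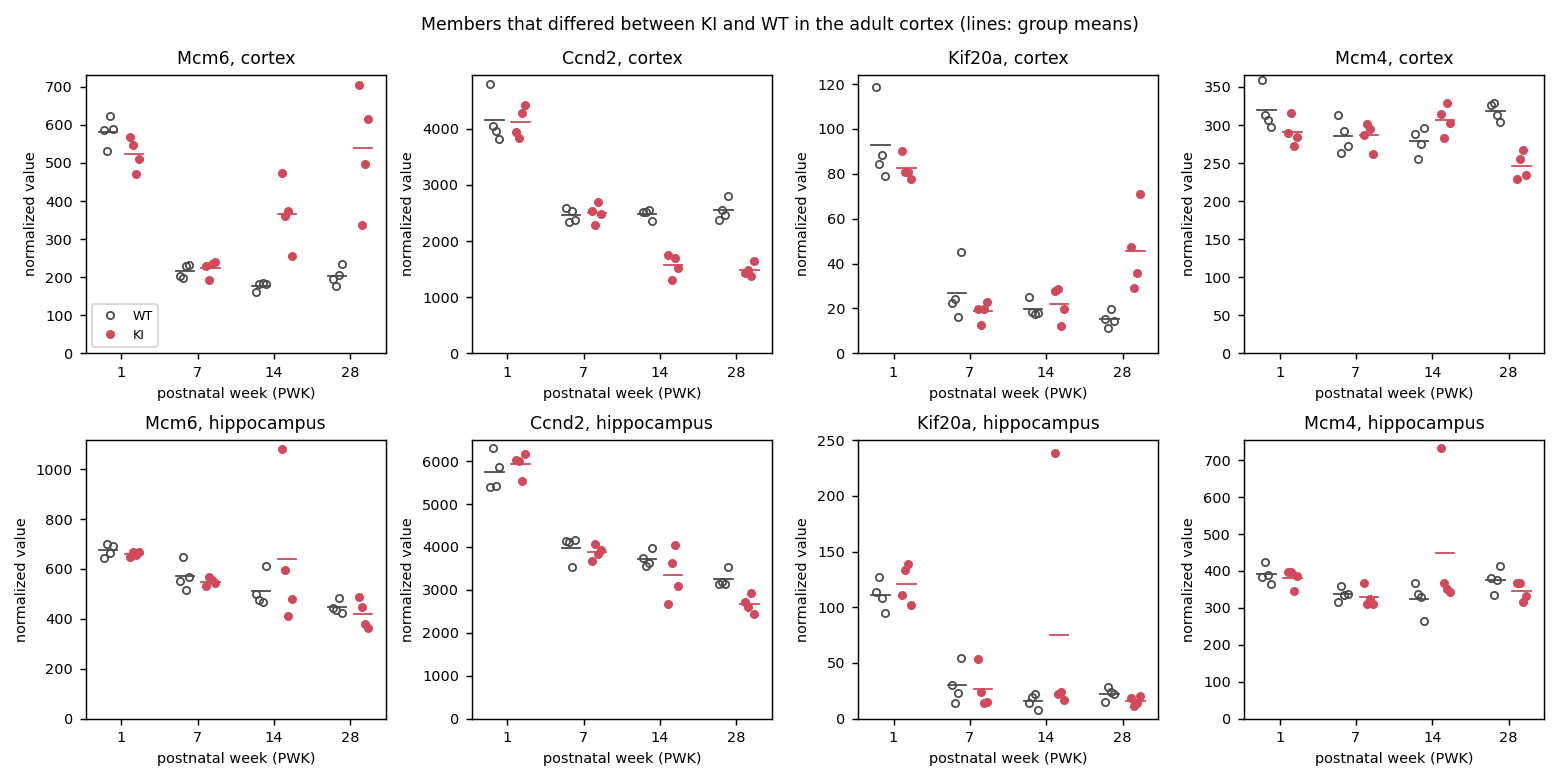
Normalized values of Mcm6, Ccnd2, Kif20a and Mcm4 by PWK and genotype in cortex (top) and hippocampus (bottom), 1 point per library, lines at group means. In the cortex KI and WT part for Mcm6 and Ccnd2 at PWK 14 and 28 and for Kif20a and Mcm4 at PWK 28, and the single high KI library of the PWK 14 hippocampus is at 1082 for Mcm6.

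In the hippocampus at PWK 28, 1 member was higher (8.92% of all genes) and 1 lower (6.91%) in KI mice, and 4 had an unadjusted p under 0.05. Cdk1 was at 16.1, 9.14, 8.52 and 9.60 in WT and 25.2, 24.4, 21.6 and 23.4 in KI libraries, all higher but at a low level (1.10 ± 0.27, adjusted p = 0.0185). In a fit of all 64 libraries its adjusted p was 0.198. Ccnd2 was at 3137, 3187, 3140.4 and 3537 in WT and 2712, 2605, 2921 and 2439.8 in KI libraries, all lower (-0.29 ± 0.06, adjusted p = 0.0111). Mki67 (0.20 ± 0.21), Top2a (0.15 ± 0.38) and Mcm6 (-0.10 ± 0.10) were not called, and the median member differed by 0.03 against 0.00374 for all genes. Of 7 astrocyte markers 4 were higher in this comparison and none lower, with Gfap at 2.00 ± 0.08, and the summed astrocyte level was 77165 to 89201 in KI and 46596 to 48161 in WT. Its part was not tested.

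The KI effect differed between the regions for 3 members at PWK 28, where 4.57% of all genes were called. The effect of Mcm6 in hippocampus minus that in cortex was -1.46 ± 0.24 (adjusted p = 0.00262), that of Kif20a -1.92 ± 0.42 (adjusted p = 0.0136) and that of Ccnd2 0.49 ± 0.10 (adjusted p = 0.00886). Mcm6 and Kif20a were called higher in the KI cortex and were not called in the KI hippocampus. Ccnd2 was lower in both and more so in the cortex. At PWK 14 no member was called with all libraries (2.85% of all genes), with Ccnd2 at 0.50 ± 0.15 (adjusted p = 0.0881), 4 had an unadjusted p under 0.05, and 2 were called without the hippocampal KI replicate 1 and 5 when all 64 libraries were fitted together.
At PWK 1 and 7 no member was called, against 0% and 0.00543% of all genes, and 2 and 1 had an unadjusted p under 0.05. The KI effect at PWK 28 minus that at PWK 14 was called for no member in cortex or hippocampus, against 0% of all genes in both. In cortex it was 0.35 ± 0.28 for Mcm6 (95% interval -0.24 to 0.93) and 1.39 ± 0.43 for Kif20a (0.47 to 2.30). At an unadjusted p under 0.05 the counts were 3 in cortex and 2 in hippocampus. Without PWK 28 KI replicate 2 the cortex gave 3 called members, and without PWK 14 KI replicate 1 of the cortex it gave 1. The hippocampus gave 0 without PWK 14 KI replicate 1 and 1 with all 64 libraries fitted together.

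Some cell cycle genes outside the list differed in the adult KI hippocampus. Of all genes 15.6% were called there at PWK 14 and 15.8% at PWK 28. Cdkn1a, the p21 inhibitor, was at 160.2, 166, 230.4 and 134 in WT and 872, 770.1, 997 and 968 in KI libraries at PWK 14 (2.40 ± 0.16, adjusted p = 0.000129). All 4 KI libraries were far above WT, and replicate 1 was not the highest of them. It was higher at PWK 28 as well (0.82 ± 0.18) and in the cortex at PWK 14 (0.95 ± 0.16). In the cortex at PWK 28 it was not called and the groups overlapped (0.61 ± 0.38, adjusted p = 0.283). Racgap1, which works at the cytokinetic ring, was at 142, 137, 164 and 165 in WT and 849, 423, 399.8 and 241 in KI hippocampi at PWK 14 (1.502 ± 0.31, adjusted p = 0.0129). Kif18a, a motor that aligns chromosomes, was at 18.2, 23.7, 27.7 and 27.0 and 126, 87.6, 175 and 77.2 (2.17 ± 0.28, adjusted p = 0.00194). For both genes all KI libraries lay above WT, and both were higher at PWK 28 too (0.72 ± 0.11 and 1.67 ± 0.21).

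By list, at PWK 14 in the hippocampus 3 of 36 other mitosis genes were higher and 1 lower, close to or below the shares of 7.64% and 7.95% over all genes. They were Kif18a, Racgap1 and Cip2a (1.13 ± 0.33), with Pttg1 lower (-0.31 ± 0.07). The other replication genes had 1 of 29 higher, also below that share, Chaf1b of chromatin assembly (2.03 ± 0.56). Without KI replicate 1, 4 other mitosis genes were higher and 1 lower, where 8.98% of all genes were higher. Of the other replication genes 2 were then higher and 1 lower. Of the 16 S phase drivers and cell cycle transcription factors, E2f3 was higher (0.41 ± 0.12) and the phosphatase Cdc25b lower (-0.91 ± 0.15). Of 10 inhibitors and pocket proteins Rbl2 (-0.27 ± 0.06) and Fzr1 (-0.25 ± 0.06) were lower beside the rise of Cdkn1a. At PWK 28 in the hippocampus 2 of 36 other mitosis genes and 0 of 29 other replication genes were higher and none lower, against 8.92% and 6.91% of all genes. Of the 16 S phase drivers and cell cycle transcription factors, E2f3 (0.29 ± 0.07) and E2f8 (1.02 ± 0.25) were higher. Ccnd3 (-0.29 ± 0.07) and Cdc25b (-0.38 ± 0.12) of that list were lower.
In the cortex at PWK 14, 2.48% of all genes were higher and 2.7% lower. Ccne2, a cyclin of S phase entry (0.75 ± 0.17), and the centromeric histone Cenpa (0.77 ± 0.20) were higher there. The inhibitors Cdkn1c (-0.99 ± 0.25) and Cdkn2c (-0.61 ± 0.15) were lower, while the inhibitor Cdkn1a was higher, as given above. At PWK 28, 5 of 29 other replication genes were higher and 2 lower, and 3 of 36 other mitosis genes higher and 1 lower, where 12.2% of all genes were higher and 10% lower. Among those with the smallest p were Racgap1 (0.83 ± 0.11), Tacc3, which stabilizes spindle microtubules (0.73 ± 0.14), Clspn, a fork checkpoint mediator (-1.87 ± 0.38), and Prim2, a primase subunit (-0.58 ± 0.12). Cdkn1c was at 182, 157, 149 and 132 in WT and 54.1, 72.3, 82.1 and 45.4 in KI cortices, all lower (-1.30 ± 0.20, adjusted p = 0.0018). With it Cdkn1b (-0.39 ± 0.11) and Rbl2 (-0.33 ± 0.09) were lower, and Ccne1 (0.53 ± 0.11), Ccne2 (0.69 ± 0.22) and E2f3 (0.30 ± 0.07) were higher. For the inhibitors and the S phase drivers in cortex, single genes are named here, without counts over their lists.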

How the data were processed

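Per the labels, libraries were made with a stranded TruSeq kit. The submitters' processing notes name Salmon 0.11.2, DESeq2 1.19.11, R 3.6.0 and GRCm38, while the methods of the study name other versions and another kit of that make. The deposited values are estimated gene counts that the authors divided by size factors, so they are a normalized signal and not counts. They were not divided by gene length.

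The table was tested on the log2(value + 1) scale with limma 3.58.1 (trend, R 4.3.3) after genes with a mean under 1 in the libraries compared had been left out. Each of 25 comparisons was fitted on its own libraries, with adjustment over all genes, and limma's calls were tested on simulated data. Members and gene lists were chosen with earlier results of these data known. Named genes were the called members, those with the smallest p where none was called, the largest changes, and fixed examples of each role, and other genes named were chosen after their values were seen. Alternatives were a pseudocount of 5, a minimum mean of 10, scaling to equal totals, 1 fit of all 64 libraries, a replicate block, and each library left out in turn. Promoter windows came from RefSeq. Figures were drawn with matplotlib 3.10.9.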

Additional observations from a re-analysis of the deposited data

Results flagged for a closer look

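Samples that lay far from the other 3 of their group were sought in 272 groups of values, those of 16 members and of the summed level in each of the 16 groups, and 30 were found. Chance gives such a sample in about 1 of 20 groups.

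The hippocampal KI replicate 1 at PWK 14 gave 13 of the 30. It was high for Mki67 (1466), Top2a (1231), Mcm2 (498), Cdk1 (301), Ccnb1 (229), Rrm2 (674), Pcna (1526), Smc4 (669), Ccnd1 (3545), Kif20a (239), Mcm4 (732) and Rrm1 (1196), and for the summed level of the members (24462).

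The other 17 were scattered. At PWK 1 they were the WT cortex replicate 1 for Mki67 (1078) and Top2a (859), and the WT hippocampus replicate 2 for Smc4 (664) and the summed level (20998). At PWK 7 they were WT cortex replicate 4 for Cdk1 (20.5), KI hippocampus replicate 2 for Hmgb2 (133), and WT hippocampus replicate 3, low for Ccnd2 (3529) and high for Mcm7 (322). At PWK 14 the WT cortex replicate 1 was low for Mcm6 (161) and high for Kif20a (24.9), the KI cortex replicate 3 was low for Smc4 (166), and in the WT hippocampus replicate 2 was high for Cdk1 (27.8) and replicate 1 for Hmgb2 (137). At PWK 28 they were WT cortex replicate 2 for Pcna (1192), KI hippocampus replicate 1 for Ccnb1 (15.4), and in the WT hippocampus replicate 1 for Cdk1 (16.1) and replicate 4 for Ccnd2 (3537), all high.

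Effects that differed between the regions by an interaction test in limma were those of the knock-in at PWK 28 on Mcm6 (-1.46), Kif20a (-1.92) and Ccnd2 (0.49), each as hippocampus minus cortex on the log2 scale. The change from PWK 1 to PWK 7 in WT differed in the same sense for Mcm6 (1.18), Cenpe (1.59), Mcm7 (-0.47) and Tpx2 (-0.69).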

How the results depend on the processing

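Of 381 alternative counts of called members, 348 lay within 1.5 times the reported count and 33 did not. Part of the 348 come from comparisons with no member called in either count, where such a range has no meaning. No fold change of a member called between KI and WT reversed. The other named fold changes were not checked for this. In the fit of all 64 libraries the count between KI and WT was 23 in the hippocampus at PWK 14 and 1 at PWK 28. At PWK 14 it called 32.9% of all genes there. That fit gave 2 for PWK 28 against PWK 7 in both WT regions, 2, 7 and 5 for hippocampus against cortex at PWK 1, 7 and 28, 5 for the KI effect between regions at PWK 14, 1 for the KI effect at PWK 28 minus PWK 14 in the hippocampus, and 2 for the regional difference in the postnatal change. The cause was not tested.

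With a replicate block the count was 1 between KI and WT in the hippocampus at PWK 14 and 7 between the regions at PWK 7. The labels do not say whether equal numbers share a mouse, and the rule for pairing, every pair over 0.1, was not met. Deviations of same-numbered cortex and hippocampus libraries correlated at 0.140 on average, over 0.1 in 17 of 32 pairs, against -0.046 and 12 of 96 for different numbers, and those of KI and WT libraries at 0.026, over 0.1 in 10 of 32.

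With each library left out in turn, the count ranged from 3 to 7 between KI and WT in the cortex at PWK 28, and in the hippocampus from 0 to 1 (PWK 7) and 0 to 3 (PWK 14). It ranged from 2 to 5 and from 2 to 6 for PWK 28 against PWK 7 in the WT cortex and hippocampus, from 4 to 24 and from 7 to 11 for hippocampus against cortex at PWK 1 and 7, from 0 to 2 for the KI effect between regions at PWK 14, from 0 to 3 for the KI effect at PWK 28 minus PWK 14 in cortex, and from 4 to 7 for the regional difference in the postnatal change. The read depth behind the normalized values is unknown, and members near 10 normalized counts in adult tissue are the least precise.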
